A study of Mus musculus with 2 samples.

Results

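The miRNA genes described here were read in the forebrain of mouse embryos at 16.5 days. They are taken as markers of red blood cells or of myeloid cells, among them microglia, but not all are confined to these cells. They are 7 genes, taken by symbol from the 1973 miRNA genes of the deposited tables: Mir451a, Mir144 and Mir486 as 3 erythroid genes, and Mir223, Mir155, Mir146 and Mir146b as 4 myeloid genes. All 7 had a row and reached 5 or more counts in each library, and the filter on low counts removed none of them. The study comprises 2 miRNA sequencing libraries, made from total RNA of forebrain of strain B6NCrl, with tissue of male and female embryos pooled. Replicate 2 was a pool of 41 embryos, and the number of embryos in the pool of replicate 1 is not given in the sources used here. Both libraries belong to a single group of healthy, unmodified embryos, so there is no contrast between conditions, and p-values below compare 2 libraries only.

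A miRNA is cut from a hairpin in a longer transcript and loaded into an Argonaute protein, where its seed, bases 2 to 8, pairs with target mRNAs and lowers their output. Some miRNA genes are active in so few lineages that their reads serve as markers of cells. The embryonic brain holds red cells inside its vessels, and it is colonised by microglia, which are macrophages that descend from yolk sac progenitors. Each of these cell types is a small part of the tissue next to neural progenitors and neurons.

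The sequences below are the mature forms that the members' names stand for, with the seed in capitals, 5′ to 3′. They come from RefSeq (GRCm38.p6), where 6 of the 7 genes matched. Mir486 did not. The tables count reads per gene and do not separate the arms of a hairpin.
mmu-miR-451a: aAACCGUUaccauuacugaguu
mmu-miR-144-3p: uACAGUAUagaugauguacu
mmu-miR-144-5p: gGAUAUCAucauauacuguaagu
mmu-miR-223-3p: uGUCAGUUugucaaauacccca
mmu-miR-155-5p: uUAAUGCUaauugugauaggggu
mmu-miR-146a-5p: uGAGAACUgaauuccauggguu
mmu-miR-146b-5p: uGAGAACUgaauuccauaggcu
Only the Mir146 and Mir146b forms share a seed, and no other of the 1738 mature miRNAs in the RefSeq table carries any of these seeds at bases 2 to 8. The 2 forms with the shared seed are 22 bases long and differ at 2 bases, G18A and U21C, written as the base of miR-146a-5p, the position from its 5′ end, and the base of miR-146b-5p. Both differences lie outside the seed.

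Replicate 1 held 5060112 and replicate 2 held 4158686 reads on the strand of the annotated genes, and levels are given as CPM, counts per 1000000 of these reads. With a limit of 3 counts, a gene with 0 counts could still be at up to 0.593 CPM (replicate 1) or 0.721 CPM (replicate 2). These limits and the 95% intervals below cover counting error only. Reads that map to several places, 40.5% of all reads in replicate 1 and 43.3% in replicate 2, are not assigned to any gene. Of the neural markers, 10 of 11 had a row and all 10 had counts, 30686 CPM in sum in replicate 1 and 28681 CPM in replicate 2. The levels were uneven. Mir137 was highest, at 13239 and 11457 CPM. Mir124a-1, Mir124a-2, Mir124a-3 and Mir9-2 had at most 25 reads each in either library. They are numbered copies, and reads that fit several copies are assigned to none. Their low counts are therefore not a measured low level, and the neural sum can be too low. The endothelial marker Mir126a stood at 16611 and 18999 CPM. Of 4 liver markers all had counts, 245 CPM in sum in replicate 1 and 197 CPM in replicate 2. Of 9 muscle markers 8 had a row, and Mir1a-1, Mir133a-1 and Mir133a-2 were at 0. The sum for muscle was 46.8 CPM and 38.7 CPM. The muscle genes at 0 are numbered copies as well, and reads that fit several copies are assigned to none. Their 0 is therefore not a measured absence, the limits above do not bound them, and the muscle sum can be too low.

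Together the 7 genes held 513 CPM in replicate 1 and 520 CPM in replicate 2, which is 0.0513% and 0.0520% of the gene-strand reads. The exact Clopper-Pearson intervals, 0.0494% to 0.0533% and 0.0498% to 0.0542%, overlap. The 3 erythroid genes held 0.0306% in replicate 1 (1548 reads) and 0.0240% in replicate 2 (1000 reads). The 4 myeloid genes held 0.0207% in replicate 1 (1049 reads) and 0.0279% in replicate 2 (1162 reads). The erythroid difference comes from Mir451a: without it, Mir144 and Mir486 together had 341 reads in replicate 1 (67.4 CPM) and 366 in replicate 2 (88.0 CPM), the opposite direction. That rise is from Mir144, at 42.7 CPM in replicate 1 and 70.0 CPM in replicate 2. Mir486 was lower in replicate 2, at 18.0 against 24.7 CPM. The myeloid genes were not uniform either, since Mir155 was almost level. The ratio of all erythroid to all myeloid reads was 1.48 in replicate 1, with a 95% interval of 1.36 to 1.60, and 0.861 in replicate 2, with an interval of 0.790 to 0.937. In bulk tissue, fewer cells of a type and less RNA per cell cannot be told apart.

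**Figure D1:**
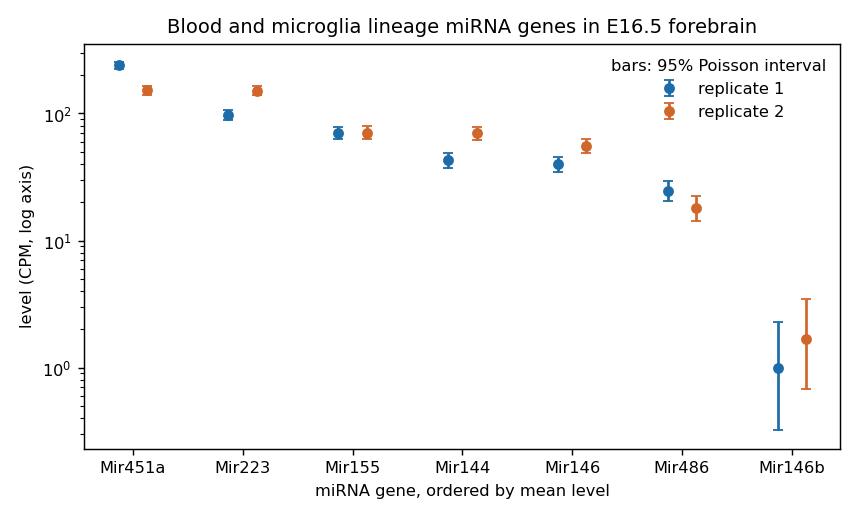
Level of each member in CPM on a log axis (points, replicate 1 in blue and replicate 2 in orange) with its exact 95% Poisson interval. Mir451a is highest in both libraries and Mir146b lowest. Mir451a and Mir486 sit lower in replicate 2, while Mir223, Mir144 and Mir146 sit higher there.

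Mir451a had the most reads of the 7 genes. It has no Dicer step: Argonaute 2 cuts its short hairpin, and the mature form runs into the loop. It accumulates as red cells mature. Mir451a (ENSMUSG00000070065.1) lies at chr11:78073170-78073241 on the plus strand of mm10, outside any annotated host gene on its strand. Its hairpin is printed to show this layout, with the mature form in capitals.
Mir451a hairpin: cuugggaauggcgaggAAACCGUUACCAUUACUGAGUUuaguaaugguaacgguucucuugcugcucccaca
The gene had 1207 reads in replicate 1 (239 CPM, 95% Poisson interval 225 to 252) and 634 in replicate 2 (152 CPM, 141 to 165), a mean of 195 ± 60.9 CPM (SD, n = 2). The higher library exceeded the lower 1.56-fold, and the intervals do not overlap. Mir451a ranked 161 by mean level among the 703 genes with a count in either library, 151 in replicate 1 and 169 in replicate 2. Relative to endothelial Mir126a, it stood at 1.44% in replicate 1 and 0.802% in replicate 2.

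Mir144 lies just upstream of Mir451a in the same orientation, at chr11:78073005-78073070, and the genes are known to share a primary transcript that GATA factors activate in erythroid cells. Unlike its neighbour it is a conventional hairpin with an arm on each side of the loop, shown in capitals.
Mir144 hairpin: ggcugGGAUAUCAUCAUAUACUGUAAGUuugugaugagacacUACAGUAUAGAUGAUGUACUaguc
Mir144 (ENSMUSG00000065401.1) had 216 reads in replicate 1 (42.7 CPM, 37.2 to 48.8) and 291 in replicate 2 (70.0 CPM, 62.2 to 78.5), with a mean of 56.3 ± 19.3 CPM (SD, n = 2). Replicate 2 was the higher library and the intervals do not overlap, opposite in direction to Mir451a. No other miRNA gene is annotated within 10 kb of this pair except Mir451b, on the opposite strand of Mir451a, which has no row.

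The pair is separated by 99 bases between hairpins, and its members differed between the libraries in opposite directions. Mir451a had 5.59 times the reads of Mir144 in replicate 1, with a 95% interval of 4.83 to 6.49, and 2.18 times in replicate 2, with an interval of 1.89 to 2.51. This ratio is formed inside each library, so no scaling of the libraries alters it. The intervals do not overlap.

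**Figure D2:**
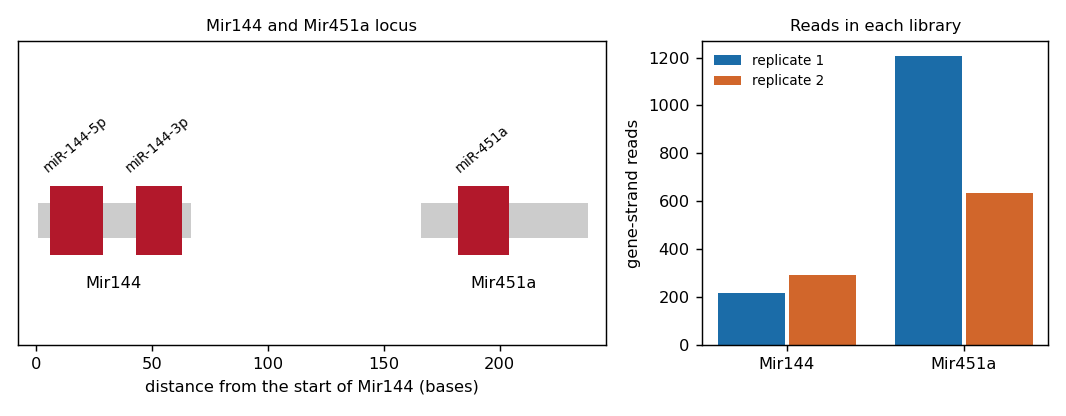
Left, the Mir144 and Mir451a locus to scale as distance in bases from the start of Mir144, hairpins in grey and mature forms in red. Right, gene-strand reads in each library: Mir144 has 216 in replicate 1 and 291 in replicate 2, and Mir451a has 1207 and 634.

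Mir486 had the fewest reads of the erythroid genes and lies in an intron of Ank1, the gene of erythrocyte ankyrin, at chr8:23142555-23142682 on the plus strand. Mir486 (ENSMUSG00000070084.3) had 125 reads in replicate 1 (24.7 CPM, 20.6 to 29.4) and 75 in replicate 2 (18.0 CPM, 14.2 to 22.6), a mean of 21.4 ± 4.72 CPM (SD, n = 2). The intervals overlap. Its level is uncertain for another reason: a stretch of 22 bases of its hairpin also occurs on the other strand of the same hairpin, so a read of that length fits 2 places at this locus. Of the 1894 genes of the tables with a transcript sequence, 63 (3.33%) hold such a stretch. Among the other 6 members, the longest such stretch was 16 bases, in Mir451a. The annotation places Mir3107 on the opposite strand of Mir486, with no row in the tables, and Mir486 was the only member with reads on the opposite strand, 4 in the library of replicate 1 and 2 in that of replicate 2. Mir486 is also known from muscle. The muscle sum given above came mostly from Mir206, at 18.8 and 25.2 CPM, and Mir208b, at 22.5 and 10.3 CPM. In the library test described below, 4 muscle markers were tested, with a median log2 ratio of -0.69 (unscaled -0.84). Mir206 was called higher in replicate 2 and Mir208b lower, 1 each, beside 23.4% and 21.9% of all tested genes. Mir208a and Mir499, at -0.63 and -0.76 from few reads, were not called. With unscaled totals 0 were called higher and 1 lower, beside 14.4% and 33.3%. The part of muscle in the level of Mir486 was not tested.

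Mir223 led the myeloid genes. It is made in granulocytes and monocytes, where it restrains neutrophil activation, and is low in most other lineages. Mir223 (ENSMUSG00000076066.1) lies at chrX:96242817-96242926, in an exon of the non-coding gene F630028O10Rik. It had 489 reads in replicate 1 (96.6 CPM, 88.3 to 106) and 629 in replicate 2 (151 CPM, 140 to 164), with a mean of 124 ± 38.6 CPM (SD, n = 2). The intervals do not overlap, and the higher library exceeded the lower 1.57-fold. Mir223 ranked 185 by mean level. In replicate 2 its level was that of Mir451a, with 629 against 634 reads, whereas Mir451a had 2.47 times its reads in replicate 1 (interval 2.22 to 2.75).

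Mir155, which activated macrophages and lymphocytes induce, lies in an exon of its host Mir155hg at chr16:84714140-84714204. Mir155 (ENSMUSG00000065397.1) had 354 reads in replicate 1 (70.0 CPM, 62.9 to 77.6) and 294 in replicate 2 (70.7 CPM, 62.8 to 79.3). The libraries differed 1.01-fold, the smallest difference among the 7 genes, and the mean was 70.3 ± 0.521 CPM (SD, n = 2).

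Mir146, the gene of miR-146a, damps signalling from Toll-like receptors by targeting Traf6 and Irak1. It lies at chr11:43374397-43374461 on the minus strand, outside any host gene annotated on that strand. Mir146 (ENSMUSG00000065601.1) had 201 reads in replicate 1 (39.7 CPM, 34.4 to 45.6) and 232 in replicate 2 (55.8 CPM, 48.8 to 63.4), a mean of 47.8 ± 11.4 CPM (SD, n = 2). Its intervals do not overlap, with replicate 2 the higher.

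Mir146b, with the same seed, was near the limit of detection. Mir146b (ENSMUSG00000070127.2), in an intron of Mfsd13a at chr19:46342762-46342870, had 5 reads in replicate 1 (0.988 CPM, 0.321 to 2.31) and 7 in replicate 2 (1.68 CPM, 0.677 to 3.47). Mir146 had 40.2 times as many reads in replicate 1 (interval 16.9 to 125) and 33.1 times as many in replicate 2 (15.8 to 83.4). Of the uniquely placed reads of the pair, Mir146 took 97.6% in replicate 1 and 97.1% in replicate 2. The hairpins share 21 bases, which cover the start of the mature form up to the first differing base, and a read cut short before that base could not be assigned to either gene. No other member shares as long a stretch with another miRNA gene outside its own locus, the next longest being 13 bases.

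By mean CPM the order was Mir451a, Mir223, Mir155, Mir144, Mir146, Mir486 and Mir146b. A miRNA read spans the whole mature molecule, so CPM was compared without division by length. Division by the annotated gene length gave the same order. This is an order of reads, and whether the libraries capture different miRNAs equally well was not tested. The order also held in each library alone. Of the 6 neighbouring pairs in this order, 3 were apart beyond the spread, meaning that their ranges over the 2 libraries did not overlap and that the interval of the pair share left out 50% in each library. These were Mir223 above Mir155, Mir146 above Mir486, and Mir486 above Mir146b. The other 3 pairs did not differ beyond that spread: Mir451a and Mir223, Mir155 and Mir144, and Mir144 and Mir146. The place of Mir486 holds for assigned reads only, since its level is uncertain for the reason given above.

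**Figure D3:**
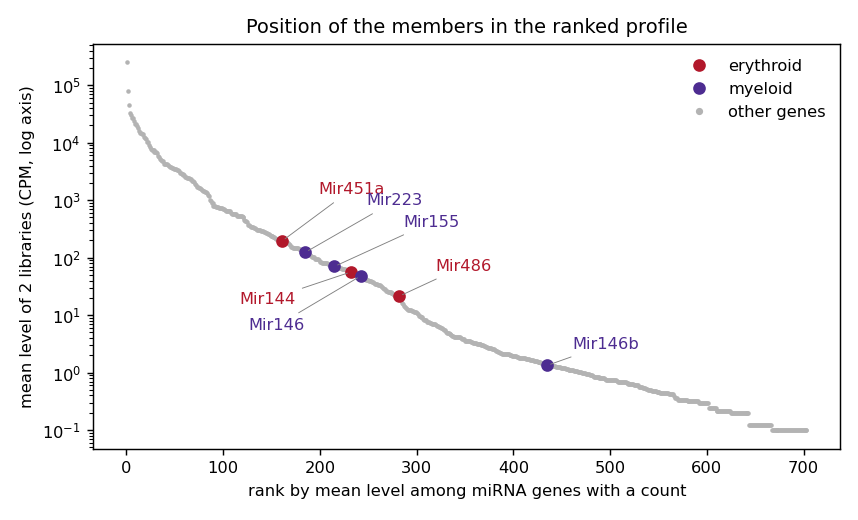
Mean level of the 703 miRNA genes with a count, in CPM on a log axis, against their rank. The members, erythroid in red and myeloid in purple, run from rank 161 (Mir451a) to rank 435 (Mir146b), and 6 of them lie between ranks 161 and 282.

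Some genes outside the lineages mark these positions on the scale of mean CPM. Mir451a lay between Mir214 at 209 ± 84.6 CPM (SD, n = 2) and Mir669o at 195 ± 1.18 CPM. Mir223 lay between Mir503 at 125 ± 17.2 CPM and Mir670 at 124 ± 4.98 CPM. Mir155 lay between Mir410 and Mir702, Mir144 between Mir6236 and Mir326, Mir146 between Mir6540 and Mir1198, and Mir486 between Mir758 and Mir190b. Mir146b had the same counts as Mir7063, 5 and 7 reads, and lay just above Mir6899. With 2 libraries these are neighbours in level only.

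To ask whether a member differed between the libraries by more than counting noise, the exact binomial test was run on 466 genes, all those whose counts in the 2 libraries sum to 10 or more, after TMM scaling of the totals (a trimmed mean over genes of the log ratios). It called 4 of the 7 members, at a Benjamini-Hochberg adjusted p under 0.05, beside 45.3% of all tested genes. Higher in replicate 2 were 3 members, beside 23.4% of all tested genes, and lower was 1 member, beside 21.9%. The members' median log2 ratio of replicate 2 over replicate 1 was 0.63, and that of all tested genes 0.01. Single members ran from -0.50 (Mir451a) to 0.87 (Mir146b, from 5 and 7 reads), so the median is not a shift common to all. Since the test knows counting noise only and not how pools of embryos vary, a call describes these libraries and not a biological difference. With unscaled totals every log2 ratio moved by -0.14 and 47.6% of the genes were called, 14.4% higher and 33.3% lower, and the members' calls were again 3 higher and 1 lower.

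Among the erythroid genes, Mir144 was called higher in replicate 2 and Mir451a lower. Mir144 had a log2 ratio of 0.86 (exact binomial test, adjusted p = 1.32e-10), and 11.6% of all tested genes had an absolute ratio at least as large. Mir451a had a log2 ratio of -0.50 (exact binomial test, adjusted p = 3.23e-12), which 31.3% of the tested genes reached in size. Mir486 had a log2 ratio of -0.31 and was not called (exact binomial test, adjusted p = 0.263). Of the 4 liver markers, 1 was called lower and 0 higher, beside 21.9% and 23.4% of all tested genes. Mir122 had a log2 ratio of -0.45, Mir194-1 of -0.52 (from 14 and 7 reads) and Mir194-2 of -0.19. Mir192, of similar level to Mir122, went the other way, at 0.14 with TMM. The median of the 4 was -0.32 with TMM and -0.46 with unscaled totals. With unscaled totals 2 of the 4 were called lower, beside 33.3% of all tested genes. Endothelial Mir126a, at 0.34 with TMM, was called higher under both scalings. The part of other tissue or of vessel content in the erythroid values was not tested.

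Among the myeloid genes, Mir223 and Mir146 were called higher in replicate 2. Mir223 had a log2 ratio of 0.79 (exact binomial test, adjusted p = 4.09e-19), a size that 13.3% of the tested genes reached. Mir146 had a log2 ratio of 0.63 (exact binomial test, adjusted p = 1.87e-05). The ratio of Mir223 to Mir146 reads was 2.43 in replicate 1 (interval 2.06 to 2.88) and 2.71 in replicate 2 (2.33 to 3.17), and these intervals overlap. Mir155 had a log2 ratio of 0.16 and was not called (exact binomial test, adjusted p = 0.281). The ratio of Mir223 to Mir155 reads was 1.38 in replicate 1 (1.20 to 1.59) and 2.14 in replicate 2 (1.86 to 2.47), and these intervals do not overlap. Mir146b had a log2 ratio of 0.87, from 5 and 7 reads, and was not called (exact binomial test, adjusted p = 0.55).

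**Figure D4:**
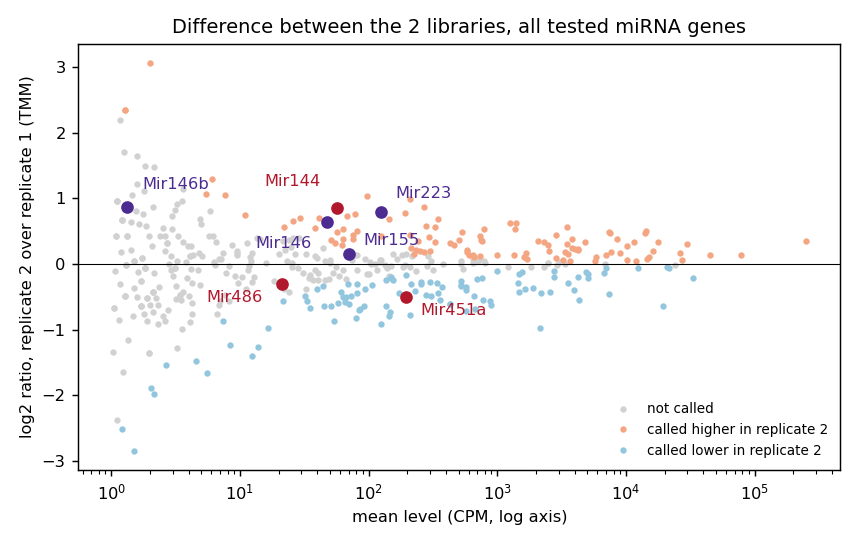
Log2 ratio of replicate 2 over replicate 1 after TMM scaling against mean level in CPM (log axis) for 466 tested miRNA genes, coloured by the call of the exact binomial test. Of the labelled members, Mir223, Mir144 and Mir146 lie among the genes called higher, Mir451a among those called lower, and Mir155, Mir486 and Mir146b among those not called.

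The split of Mir144 from Mir451a was set beside all neighbouring miRNA genes, a comparison chosen after their values were seen. Neighbours were tested genes next to each other on a strand with starts within 10 kb, which gave 119 pairs. The log2 ratios of Mir144 and Mir451a differed by 1.36, while the median difference over all pairs was 0.19. Only 2 of the 119 pairs, this pair included, differed by that much, and the other, Mir449c with Mir449b, rested on as few as 7 reads. Among the 78 pairs with at least 100 reads for each gene in each library, Mir144 and Mir451a had the largest difference, and the next was 0.71. With TMM scaling they were also the only pair of these 78 with calls in opposite directions (1.28%). Over all pairs, 1 of 119 (0.84%) was called in opposite directions with TMM, and with unscaled totals Mir144 and Mir451a were among 5 such pairs (4.2%).

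**Figure D5:**
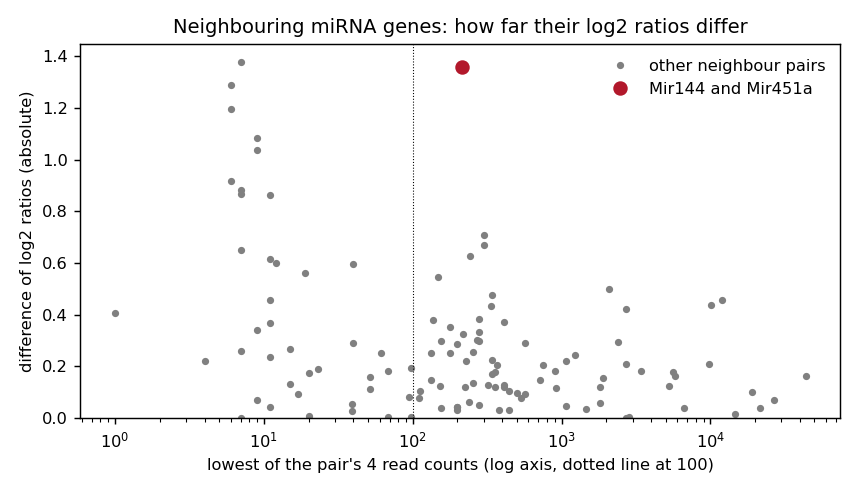
Absolute difference between the log2 ratios of neighbouring miRNA genes against the lowest of the pair's 4 read counts (log axis, dotted line at 100 reads), for 119 pairs. Mir144 and Mir451a (red) lie at 1.36, and every other pair right of the dotted line lies at 0.71 or below.

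Other genes known from blood cells were taken as a list of 9, of which 7 had a row and 6 had enough reads to be tested. The exact binomial test called 2 of the 6 higher in replicate 2 and 1 lower, beside 23.4% and 21.9% of all tested genes, with a median log2 ratio of 0.06. With unscaled totals 1 was higher and 1 lower, beside 14.4% and 33.3%, and the median was -0.09. These counts lie near the shares over all genes. Mir150, a gene of mature lymphocytes, stood at 52.0 CPM in replicate 1 and 48.8 CPM in replicate 2 (263 and 203 reads) and was not called, with a log2 ratio of 0.05 that unscaled totals turn to -0.09. Mir147, which macrophages induce, stood at 10.3 and 8.18 CPM. Mir221 and Mir222, which haematopoietic progenitors share with endothelium and other tissues, stood at 225 and 227 CPM and at 127 and 120 CPM. Mir21a at 3669 and 3920 CPM and Mir342 at 8902 and 5901 CPM were far above every member. Both are also expressed outside blood, Mir342 from its host Evl in the nervous system. Mir142b had no gene-strand read in either library, and its opposite strand, where Mir142 of all blood lineages is annotated, had 183 CPM in replicate 1 and 226 CPM in replicate 2.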

How the data were processed

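Small RNA reads from 2 libraries of a single group were analysed. Per the file headers, that is the deposited descriptions of the files, the authors made raw counts per gene against mm10 with the GENCODE M4 annotation. No source used here names the aligner, the counting tool or the trimming. The deposited counts come without regard to strand, for the gene strand and for the opposite strand, and the gene strand was used. The 4 rows of unassigned reads stayed out of totals; reads mapping to several loci were 40.5% and 43.3%, unmapped reads 19.1% and 15.2%, and reads outside listed genes 2.50% and 2.82%. Symbols and positions came from GENCODE M21 (GRCm38, the assembly of mm10) for 1894 of 1973 genes, and sequences from RefSeq. The members and lists were chosen with earlier results of these data known.

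CPM is relative to gene-strand totals of 5060112 and 4158686. Scaling used TMM from edgeR 4.0.16 under R 4.3.3 on genes whose 2 counts sum to 10 or more, with DESeq2 1.42.0 size factors as an alternative. The two-sided exact binomial test (scipy 1.17.1) was adjusted over all 466 tested genes at 0.05, and log2 ratios used a pseudocount of 0.5. The test was run on simulated Poisson counts with unscaled totals, which hold counting noise only. That run cannot show how the test behaves where pools vary beyond it. Intervals are exact Poisson or Clopper-Pearson at 95%. Named genes are all members, the list of other blood genes and miRNA genes within 10 kb of a member. For each member, the gene level with or next above it in mean CPM and the gene next below it are named too. The markers of other tissues named in the text, and Mir449b with Mir449c, fall outside this rule and were chosen after their values were seen. The labels give each pool a biosample record of its own but no litter or day, so differences measure only the spread between these libraries.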

Additional observations from a re-analysis of the deposited data

Results flagged for a closer look

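Reads on the opposite strand, which no level above uses, exceeded the limit of 3 counts that a count of 0 allows at 5 of 46 genes, the members and the genes of the fixed lists that have a row. Mir142b had 0 reads on its gene strand, against 926 on the opposite strand for replicate 1 and 941 for replicate 2. The others were few: Mir126a had 5 and 4, Mir124a-3 had 9 and 6, Mir219a-1 had 6 in replicate 1, and Mir486, the only member among them, had 4 in replicate 1. Whether the reads at Mir142b come from Mir142, annotated on that strand without a row, was not tested.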

How the results depend on the processing

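With all reads of a table as denominator, unassigned reads included, the erythroid share was 0.0102%, the myeloid share 0.00915% and the sum over members 194 CPM, in place of 0.0273%, 0.0243% and 517 CPM; with counts without regard to strand the sum was 508 CPM. These follow from the larger denominators. Leaving out each replicate gave 0.0240% to 0.0306% for the erythroid share, 0.0207% to 0.0279% for the myeloid share, 513 to 520 CPM for the sum and 2.18 to 5.59 for the ratio of Mir451a to Mir144, whose mean was 3.88, so the mean of that ratio stands for neither library. The order of the members kept all 6 neighbouring pairs without either replicate. Every member kept its direction and its side of the threshold under each of the scalings, filters, strand choices and pseudocounts run, except that Mir146b was not tested at a summed count of at least 50. The count of calls over all genes ran from 207 to 225 around 211. Neighbour pairs called in opposite directions numbered 1 with TMM or DESeq2 size factors and 5 with unscaled totals, an alternative added after the data were seen. A test without a replicate could not be made. No paired analysis was possible because both libraries belong to a single group. Depth limits Mir146b, with 5 and 7 reads.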
